A study of Mus musculus with 96 samples.

Results

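The prefrontal cortex (PFC) of mice with an XX chromosome complement was compared between animals with testes and animals with ovaries. The 23 libraries were those whose labels gave the tissue PFC and the genotype XXSry (12 mice with testes) or XX (11 mice with ovaries), out of 96 libraries in the series. The animals belonged to the FCG model, in which the testis-determining gene Sry is absent from the Y chromosome (written Y-) and sits on an autosome as a transgene. XXSry mice carry 2 X chromosomes and the Sry transgene and form testes, while XX mice carry 2 X chromosomes without the transgene and form ovaries. Neither genotype has a Y chromosome, and every contrast between them also carries the presence of the transgene. XXSry mice had undergone subchronic variable stress (6 animals), given as 1 hour of restraint in each of 3 sessions over 6 days, or had stayed unstressed (6 animals). XX mice numbered 6 stressed and 5 unstressed animals. No label or protocol used here states age, gonadal surgery or hormone levels, so gonad type stands for all that testes or ovaries had done up to tissue collection. RNA came from tissue punches that hold neurons, glia and vessels, and in such bulk samples fewer cells of a type and less RNA per cell cannot be told apart.

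Testes and ovaries reach the brain mainly through their steroids. Androgens act as such or are converted locally into oestrogens and reduced androgens, and oestrogens and progesterone act on receptors that bind DNA and change transcription. In the adult cortex these hormones are known to act on neurons and also on microglia, astrocytes and oligodendrocyte precursors. Class I molecules of the major histocompatibility complex (MHC), which lead the results here, consist of a heavy chain and the light chain beta 2-microglobulin. They are loaded with peptides in the endoplasmic reticulum, shown to T cells at the cell surface, and in neurons have also been linked to synapse remodelling.

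Total counts per library were 73.4 to 104.4 M in XXSry and 68.5 to 89.5 M in XX mice. Of the 12 XXSry libraries 9, 2 and 1 came from cohorts 1, 2 and 3, and of the 11 XX libraries 5, 3 and 3. Levels are given as CPM, the count of a gene scaled to the size of its library. Xist, which coats the inactive X chromosome, averaged 1021 ± 82.2 CPM in XXSry and 997.3 ± 93.6 CPM in XX mice (SD, n = 12 and 11). The other RNAs of X inactivation, Tsix, Jpx and Ftx, had log2 fold changes of -0.24 (SE 0.393), 0.03 (SE 0.0625) and 0.06 (SE 0.0530), and Xist and Tsix, like Jpx and Ftx, overlap each other on opposite strands. The Y-linked genes Uty and Uba1y had 0 counts in both genotypes, which allows up to 0.00297 CPM over the XXSry and 0.00348 CPM over the XX libraries by counting error alone. Ddx3y, Eif2s3y and Kdm5d had 2, 2 and 6 counts over the XXSry libraries and 11, 5 and 8 over the XX libraries. These values went against the sex chromosome label in 0 of 23 libraries. They do not check the gonad label, because the transgene Sry was not among the genes measured.

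Across the genome the PFC of the 2 genotypes differed little, and the gene that stood out was the class I heavy chain gene H2-Q6. It was the only gene called among 18827 tested (edgeR quasi-likelihood test with treatment and cohort in the model, Benjamini-Hochberg adjusted p below 0.05), and it fell in mice with testes. That is 0.00531% of the genes tested. At an unadjusted p below 0.05, 477 genes (2.53%) were higher and 570 (3.03%) were lower in XXSry mice. The log2 fold changes of all genes centred on a median of -0.000683, with 9528 genes (50.6%) below 0. The call of H2-Q6 was narrow, and limma-voom with sample weights (adjusted p = 0.0777), a model with 2 surrogate variables (0.0540) and a fit over all 48 PFC libraries (0.457) gave none for this gene, while DESeq2 called 7 genes.

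**Figure D1:**
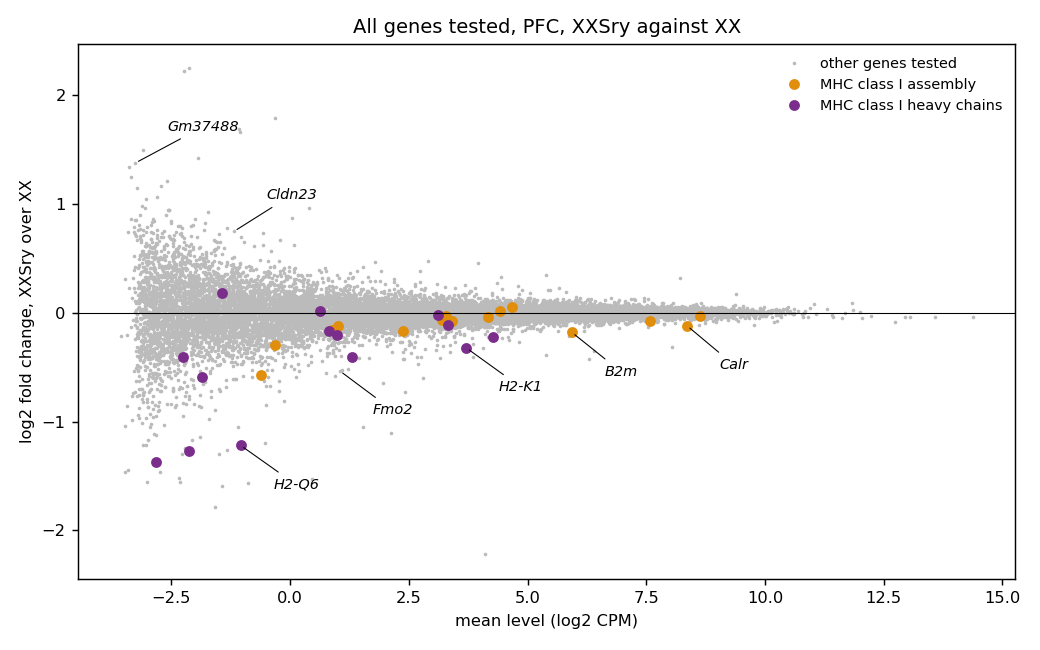
Log2 fold change of XXSry over XX mice (vertical axis) against mean level in log2 CPM (horizontal axis) for the 18827 genes tested in the PFC, with MHC class I heavy chain genes in purple and class I assembly genes in orange. Most genes lie close to 0, with more spread at low levels, and H2-Q6 at -1.22 lies among the lowest points of its level.

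H2-Q6 (ENSMUSG00000073409, chromosome 17, 35424850 to 35430055 on the plus strand in GRCm38) encodes a heavy chain of the Qa class, the less variable relatives of the classical transplantation antigens. Its level was 0.146, 0.279 and 0.411 CPM at the lowest, median and highest XXSry library, against 0.357, 0.569 and 1.24 CPM in XX mice. All 12 XXSry libraries lay below the XX median, 10 of them lay below every XX library, and 10 of 11 XX libraries lay above every XXSry library. Means were 0.277 ± 0.0833 CPM in XXSry and 0.666 ± 0.238 CPM in XX mice (SD, n = 12 and 11), a difference of -1.22 in log2 fold change (SE 0.206, adjusted p = 0.0452 by edgeR). The counts behind this were 283 over all XXSry and 578 over all XX libraries, so the gene is weakly expressed in this tissue. A stricter filter of at least 1 CPM in 11 libraries removed it from the test. Within cohort 1 alone the log2 fold change was -1.21 (SE 0.259) and within cohort 2 alone -1.27 (SE 0.510). Leaving out each library in turn kept H2-Q6 between -1.29 and -1.11, but the adjusted p ran from 0.00458 to 0.226 and stayed below 0.05 in 6 of 23 such fits. These were the fits without unstressed XXSry replicates 11 or 39, stressed XXSry replicates 4 or 12, or unstressed XX replicates 29 or 35, and the call was lost without any of the other 17 libraries.

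**Figure D2:**
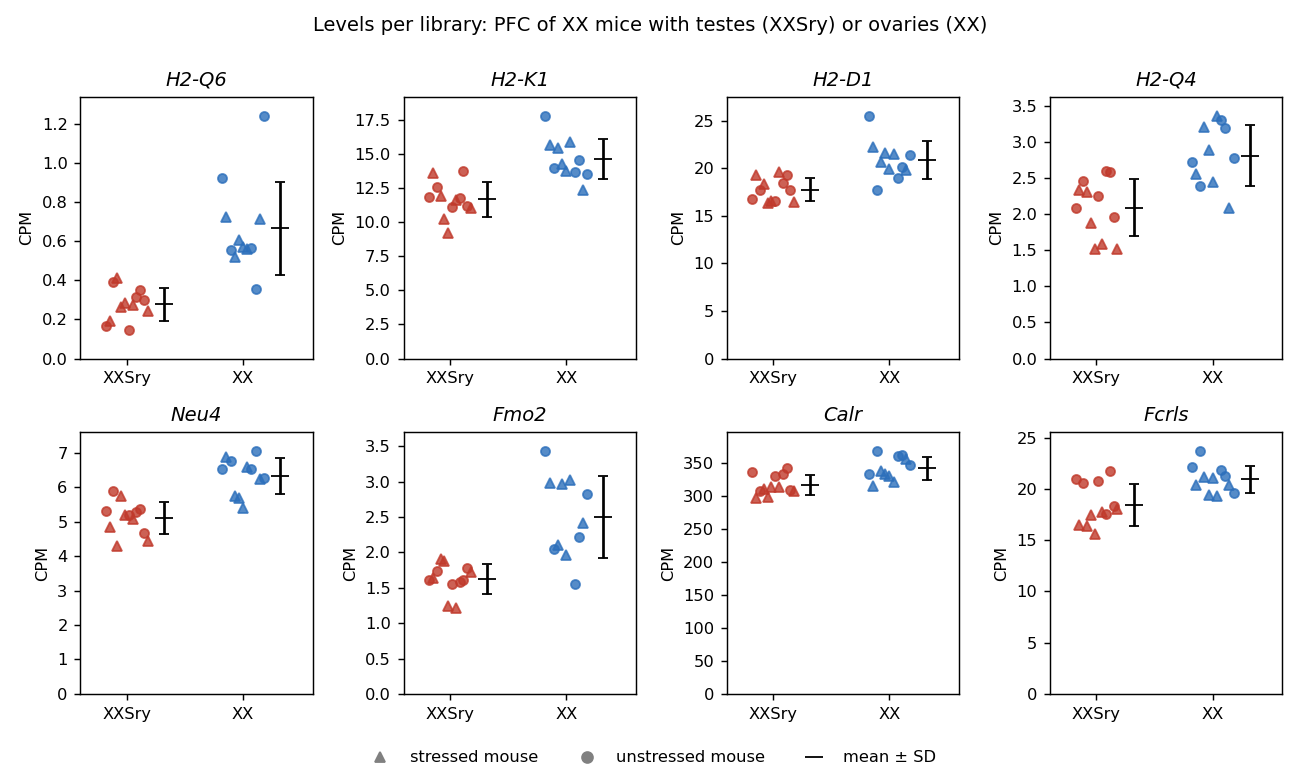
Level in CPM (vertical axis, from 0) of 8 genes in each PFC library of XXSry mice (red, left) and XX mice (blue, right), with triangles for stressed and circles for unstressed animals and black bars for the mean ± SD. For H2-Q6 the XXSry libraries run from 0.146 to 0.411 CPM and the XX libraries from 0.357 to 1.24 CPM, and in every panel the ranges of the 2 genotypes overlap.

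The promoters of 5 class I genes are given here as the 200 bases before each start, because these genes belong to the group that led the comparison and their promoters share motifs. Aligned over the 200 bases, the H2-Q6 promoter was identical to that of H2-Q4 at 85.5% of bases, H2-D1 at 83.5%, H2-Q7 at 78% and H2-K1 at 61%. The annotated starts are offset, however. The letters GGGATTCCC begin at -172 in H2-Q6 and -170 in H2-D1, but at -132 in H2-Q7 and -110 in H2-K1. Bases without a counterpart in the other window count as not identical, so these shares do not rank the promoters by likeness. The sequences are listed with their positions (RefSeq, GRCm38.p6, chromosome 17, each 5' to 3' on the strand of its gene). H2-Q6 is at chr17:35424650-35424849 (plus), H2-Q7 at chr17:35438955-35439154 (plus), H2-K1 at chr17:34000348-34000547 (minus), H2-D1 at chr17:35262894-35263093 (plus) and H2-Q4 at chr17:35379417-35379616 (plus). Capitals mark matches, on either strand, to the first 4 motifs described after the sequences.
H2-Q6: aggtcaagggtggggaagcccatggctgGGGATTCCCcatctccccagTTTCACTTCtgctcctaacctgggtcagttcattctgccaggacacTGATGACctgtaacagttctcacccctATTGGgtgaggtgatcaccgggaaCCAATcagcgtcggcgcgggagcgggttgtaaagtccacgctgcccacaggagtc
H2-Q7: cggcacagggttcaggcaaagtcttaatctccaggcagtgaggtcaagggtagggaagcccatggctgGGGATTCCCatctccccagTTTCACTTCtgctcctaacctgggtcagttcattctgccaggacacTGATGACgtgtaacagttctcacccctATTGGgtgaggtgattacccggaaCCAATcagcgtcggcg
H2-K1: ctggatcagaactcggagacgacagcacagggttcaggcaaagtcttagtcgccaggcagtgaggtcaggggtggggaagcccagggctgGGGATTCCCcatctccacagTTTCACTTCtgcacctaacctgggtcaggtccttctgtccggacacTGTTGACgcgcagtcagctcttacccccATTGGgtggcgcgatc
H2-D1: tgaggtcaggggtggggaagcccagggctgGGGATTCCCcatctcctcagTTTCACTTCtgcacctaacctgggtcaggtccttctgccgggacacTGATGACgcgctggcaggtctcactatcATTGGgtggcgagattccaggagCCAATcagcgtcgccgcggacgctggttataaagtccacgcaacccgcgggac
H2-Q4: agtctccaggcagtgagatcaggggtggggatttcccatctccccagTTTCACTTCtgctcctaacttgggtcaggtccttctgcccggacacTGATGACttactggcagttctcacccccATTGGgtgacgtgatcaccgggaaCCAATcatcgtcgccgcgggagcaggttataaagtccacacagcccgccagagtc

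From the 5' side, the first motif is GGGATTCCC, which belongs to binding sequences of NF-kappa B factors. It was found in 4 of the 5 promoters and in 70 of 32851 promoter windows of 200 bases (0.213%), and its letters are not in the H2-Q4 window. The next is TTTCACTTC, which reads GAAGTGAAA on the other strand and belongs to the interferon-stimulated response element. It was found in all 5 promoters and in 101 of 32851 windows (0.307%). TGNTGAC, chosen to cover the X2 box of MHC promoters, was in all 5 and in 9.7% of windows. ATTGG, or CCAAT on the other strand, which is the Y box, was in all 5 and in 29.3% of windows. The letters were chosen after these promoters had been read, and these 4 motifs did not overlap each other. Oestrogen receptors bind paired arms with the letters AGGTCA. This arm was in 4 of the 5 promoters and in 11.4% of windows, in H2-Q6 once over the X2 box. The full palindrome, with both arms set 3 bases apart, was in 0 of the 5 and in 2 of all windows. A match is a description of the letters and no measurement of binding.

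The classical heavy chains H2-K1 and H2-D1, which present peptides on nearly all cells, lay lower in XXSry mice without a call. H2-K1 had 9.23, 11.7 and 13.8 CPM (lowest, median and highest library) in XXSry and 12.4, 14.2 and 17.8 CPM in XX mice. Every XXSry library lay below the XX median and 9 of 12 lay below every XX library. The log2 fold change was -0.32 (SE 0.0638, adjusted p = 0.162 by edgeR), so the gene was not called. It was -0.36 within cohort 1 and -0.14 within cohort 2. H2-D1 had 16.3, 17.7 and 19.6 CPM in XXSry and 17.7, 20.6 and 25.5 CPM in XX mice, with 12 of 12 XXSry libraries below the XX median (-0.22, SE 0.0518, adjusted p = 0.445 by edgeR). The ranges of both genes overlapped between genotypes.

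Among the other Qa-region genes, H2-Q4 had 1.52, 2.17 and 2.60 CPM in XXSry and 2.08, 2.78 and 3.36 CPM in XX mice (-0.40, SE 0.101, adjusted p = 0.473 by edgeR). H2-Q7, the neighbour whose product lies close to that of H2-Q6 in sequence, had 0.0258, 0.0892 and 0.285 CPM in XXSry and 0.123, 0.292 and 0.582 CPM in XX mice (-1.27, SE 0.356, unadjusted p = 0.00123). For both genes all 12 XXSry libraries lay below the XX median. H2-Q5, annotated as a polymorphic pseudogene, had 0.0641 ± 0.0542 CPM in XXSry and 0.180 ± 0.0890 CPM in XX mice (-1.38, SE 0.387, unadjusted p = 0.00121). H2-Q1 stood at -0.59 (SE 0.320, unadjusted p = 0.0751). Of the windows of 50 bases in its transcripts, the length of a read, H2-Q6 shares 35% with another gene, most with H2-Q7, which shares 26.5% of its own. The shares are 36.4% each for H2-Q4 and H2-Q5, 9.63% for H2-K1 and 12.8% for H2-D1. Among T-region genes H2-T22 shares 53.5% and H2-T10 50.4%, most with each other, and H2-T23 shares 14.5%. How the authors' counting treated such reads is not stated, so the split among Qa genes and among T-region genes is uncertain. H2-Q4 also overlaps Gm11131 on the opposite strand.

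Among the nonclassical T- and M-region genes 1 of 7 had an unadjusted p below 0.05. H2-M3, which presents formylated bacterial and mitochondrial peptides, stood at -0.20 (SE 0.0982, unadjusted p = 0.0472). H2-T24 (-0.17), H2-T22 (-0.11) and H2-Bl (-0.40) lay below 0 without passing an unadjusted p of 0.05. H2-T23, the mouse Qa-1 molecule that is read by natural killer cells, had 8.68 ± 0.440 CPM in XXSry and 8.69 ± 0.900 CPM in XX mice (log2 fold change -0.02, SE 0.0527). H2-T10 (0.18, SE 0.235) and H2-M5 (0.02, SE 0.0968) lay above 0. In all, 12 of the 14 tested heavy chain genes lay below 0, 7 at an unadjusted p below 0.05 and 1 of these by the adjusted test, and the list median was -0.27. H2-T23 and H2-M5 changed sign under some of the alternatives tried, while the list median stayed between -0.33 and -0.17. H2-Q2 was measured but too low to test.

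Averaged over the heavy chain genes, the level per library (mean log2 CPM) was -0.09, 0.20 and 0.36 at the lowest, median and highest XXSry library and 0.31, 0.61 and 0.95 in XX mice. Of the libraries, 9 of 12 XXSry lay below every XX one and 10 of 11 XX lay above every XXSry one. Summed over the genes the heavy chains took 51.4 to 62.6 CPM in XXSry and 59.6 to 76.7 CPM in XX mice. By treatment the mean level was 0.163 in stressed XXSry against 0.603 in stressed XX mice and 0.197 in unstressed XXSry against 0.606 in unstressed XX mice. In cohort 1 it was 0.186 in 9 XXSry libraries and 0.583 in 5 XX libraries. In cohort 2 it was 0.225 in 2 XXSry libraries and 0.521 in 3 XX libraries.

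The neighbours of the class I genes were described in the same fit. Between 33996017 and 37274484 on chromosome 17, an interval of 3.28 Mb from H2-K1 to the last class I gene tested, 112 genes outside the class had a median log2 fold change of -0.0109, with 68 below 0. Of the 112, 2 were lower and 1 was higher at an unadjusted p below 0.05. The 2 lower genes were Tap2 and Psmb9, both members of the class I assembly list described below. H2-K1 lies at -1424.5 kb and H2-D1 at -162.1 kb from the start of H2-Q6, with many of those other genes in between.

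**Figure D3:**
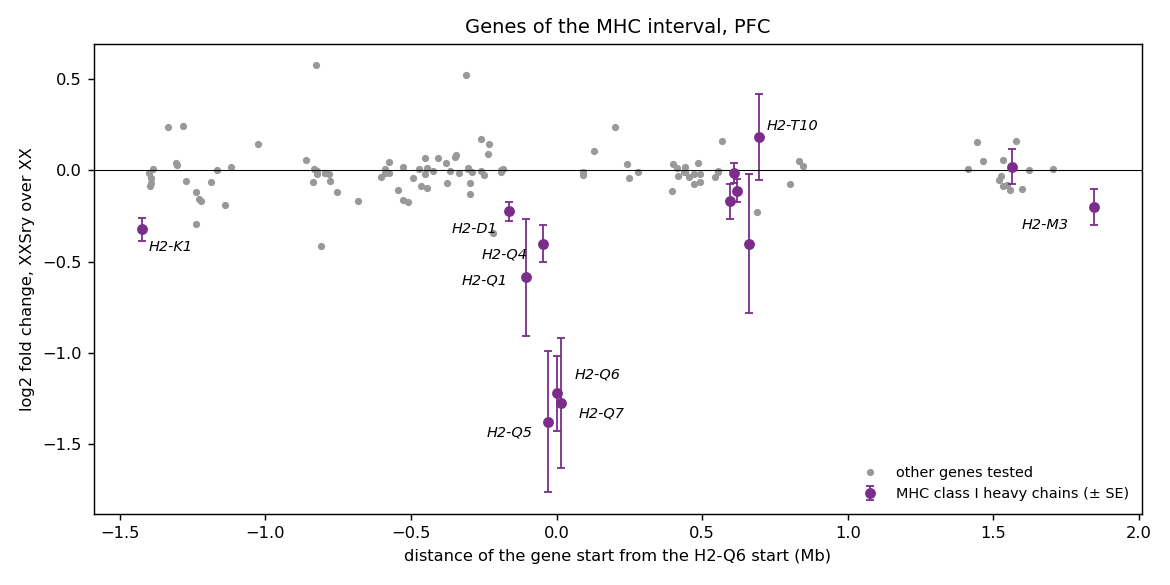
Log2 fold change of XXSry over XX mice (vertical axis) against the distance of each gene start from the start of H2-Q6 in Mb (horizontal axis), for class I heavy chain genes (purple, bars show ± SE) and the 112 other genes tested in the interval (grey). The 3 lowest points are H2-Q5, H2-Q6 and H2-Q7, between -1.38 and -1.22, within 0.05 Mb of each other, and the other genes scatter around 0.

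The genes that fold and load class I molecules lay on the same side with small differences, and none was called. Calr, calreticulin, the chaperone that holds the heavy chain for loading, had 297, 311 and 342 CPM in XXSry and 315, 338 and 367 CPM in XX mice (lowest, median and highest). Of the XXSry libraries 11 of 12 lay below the XX median (log2 fold change -0.12, SE 0.0249, adjusted p = 0.201 by edgeR). B2m, the light chain, had 57.4 ± 5.61 CPM in XXSry and 65.1 ± 5.97 CPM in XX mice (-0.18, SE 0.0581, unadjusted p = 0.00496). Nlrc5, the transactivator that binds class I promoters, had 0.525 ± 0.210 CPM in XXSry and 0.765 ± 0.203 CPM in XX mice (-0.57, SE 0.206, unadjusted p = 0.00928). Tap2, a subunit of the peptide transporter, stood at -0.17, Psmb9, an immunoproteasome subunit, at -0.29 and Pdia3, a disulphide isomerase of the loading complex, at -0.07. In all 13 of 15 assembly genes lay below 0, 6 at an unadjusted p below 0.05, with a median of -0.078. Their mean log2 level was 3.67 to 3.83 in XXSry and 3.79 to 3.97 in XX libraries, and 10 of 12 XXSry libraries lay below every XX library. Psmb9, Nlrc5 and Pdia3 overlap genes on the opposite strand, which makes their values uncertain where strand use is not stated.

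Class II genes and interferon targets, which share inducers with class I, had 0 calls. Class II genes had 4 of 6 below 0 and a median of -0.03, with none at an unadjusted p below 0.05. Of 34 interferon-response genes 25 lay below 0 with a median of -0.088. Of these, 3 had an unadjusted p below 0.05, namely the interferon-induced GTPase genes Gm4951 (-0.76, SE 0.330) and Iigp1 (-0.44, SE 0.187) and the ADP-ribosyltransferase gene Parp14 (-0.18, SE 0.0873). The antiviral enzyme gene Rsad2 had 1.76 ± 0.317 CPM in XXSry and 1.98 ± 0.652 CPM in XX mice (-0.24, SE 0.122), and Ifi27 stood at -0.10 (SE 0.0491). The mean log2 level of the list had medians of 1.25 in XXSry and 1.24 in XX libraries, and 6 of 12 XXSry libraries lay below the XX median. Averaged over libraries this level was 1.19 in XXSry and 1.29 in XX mice. Within cohort 2 alone the list median turned to 0.0337, with 15 of 34 below 0.

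Outside the class I heavy chain and assembly lists, the genes nearest to the threshold were a sialidase, a monooxygenase and a microglial receptor. Neu4, a sialidase that trims sialic acid from glycoproteins and gangliosides, had 4.31, 5.19 and 5.88 CPM in XXSry and 5.39, 6.52 and 7.04 CPM in XX mice. All 12 XXSry libraries lay below the XX median and 10 lay below every XX library (log2 fold change -0.28, SE 0.0532, adjusted p = 0.154 by edgeR). It was called in the fit over all 48 PFC libraries (-0.31, adjusted p = 0.0271) and by DESeq2 (adjusted p = 0.0025). Its relatives Neu1 (-0.05), Neu2 (-0.01) and Neu3 (-0.13) had SEs of 0.0311, 0.0790 and 0.0725 and none passed an unadjusted p of 0.05. Fmo2, a flavin-containing monooxygenase, had 1.22, 1.63 and 1.91 CPM in XXSry and 1.56, 2.41 and 3.43 CPM in XX mice. All 12 XXSry libraries lay below the XX median and 10 of 11 XX libraries above every XXSry library (-0.53, SE 0.109, adjusted p = 0.190 by edgeR). Fmo1 (-0.01, SE 0.0921), Fmo5 (-0.01, SE 0.0838) and Fmo4 (0.38, SE 0.38) did not share its direction beyond their errors.

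Fcrls, a receptor-like gene of resting microglia, had 15.6, 17.9 and 21.8 CPM in XXSry and 19.3, 21 and 23.7 CPM in XX mice (log2 fold change -0.20, SE 0.0432, adjusted p = 0.249 by edgeR). Of the XXSry libraries 11 of 12 lay below the XX median, and the ranges overlapped. Within cohort 2 it stood at -0.06. Rras, a small GTPase of vessels, had 5.16 ± 0.398 CPM in XXSry and 5.84 ± 0.379 CPM in XX mice (-0.20, SE 0.0516), with 9 of 12 XXSry libraries below every XX library. Aldh1a3, which makes retinoic acid, had 4.54 ± 0.737 CPM in XXSry and 5.81 ± 1.21 CPM in XX mice (-0.42, SE 0.104). Slc35d2, a nucleotide sugar transporter, had 0.343 ± 0.0779 CPM in XXSry and 0.488 ± 0.0982 CPM in XX mice (-0.61, SE 0.159). Arhgap29, a GTPase-activating protein, stood at -0.15, Ky, a muscle-related protease gene, at -0.45 and 9430085M18Rik at -0.53. Each of the last 6 had an adjusted p between 0.390 and 0.473.

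Of the 20 genes with the smallest p, 14 were lower and 6 were higher in XXSry mice, and all 20 kept their direction in every alternative in which they were tested. They were picked by p in these libraries, and the alternatives largely reuse the same libraries, so a kept direction is no separate support. Rev3l, the catalytic subunit of a translesion DNA polymerase, was among the higher ones, with 63.9, 68.9 and 74.3 CPM in XXSry and 56.5, 63.6 and 66.9 CPM in XX mice (log2 fold change 0.12, SE 0.0300, adjusted p = 0.473 by edgeR). All 12 XXSry libraries lay above the XX median. Cldn23, a tight junction protein, had 0.503 ± 0.121 CPM in XXSry and 0.307 ± 0.0977 CPM in XX mice (0.75, SE 0.194). The predicted genes Gm38228 (0.61), Gm42735 (0.41), Gm37488 (1.38) and Gm37443 (1.21) made up the rest, and the last 2 had under 0.2 CPM on average in both genotypes.

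No receptor gene of oestrogens or progesterone passed an unadjusted p of 0.05. Esr1, oestrogen receptor alpha, had 6.58 ± 1.87 CPM in XXSry and 6.53 ± 1.59 CPM in XX mice (log2 fold change 0.05, SE 0.183, unadjusted p = 0.799). Esr2, oestrogen receptor beta, had 0.437 ± 0.160 CPM in XXSry and 0.386 ± 0.183 CPM in XX mice (0.33, SE 0.288). Pgr, the progesterone receptor, had 54.1 ± 5.84 CPM in XXSry and 52 ± 3.72 CPM in XX mice (0.04, SE 0.0560). Gper1, a membrane oestrogen receptor, had 1.97 ± 0.260 CPM in XXSry and 2.00 ± 0.419 CPM in XX mice (0.00, SE 0.103). The SEs of Esr1 and Esr2 are the widest, so larger differences could be missed for these genes than for Pgr and Gper1. The signs of Esr1, Pgr and Gper1 each turned under at least 1 of the alternatives. Srd5a1, which reduces testosterone and progesterone, was the single gene of 11 tested for steroid synthesis and conversion at an unadjusted p below 0.05, with 7.59 ± 0.630 CPM in XXSry and 7.12 ± 0.503 CPM in XX mice (0.11, SE 0.0489, unadjusted p = 0.0348). Tspo, a mitochondrial protein linked to cholesterol transport, stood at -0.24 (SE 0.123).

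Genes known to respond to androgens or oestrogens elsewhere were spread evenly around 0. Of 23 androgen-responsive genes 10 lay below 0 with a median of 0.01, and 3 had an unadjusted p below 0.05. These were the metalloreductase gene Steap4 (0.61, SE 0.267), the postsynaptic scaffold gene Homer2 (-0.06, SE 0.0291) and the transporter gene Abcc4 (-0.12, SE 0.0576). Steap4 had 0.292 ± 0.0860 CPM in XXSry and 0.192 ± 0.0981 CPM in XX mice, and all 12 XXSry libraries lay above the XX median. Of 19 oestrogen-responsive genes 11 lay below 0 with a median of -0.01. Hspb8, a small heat shock protein, stood at -0.15 (SE 0.0567) and Nrip1, a nuclear receptor corepressor, at 0.08 (SE 0.0372). Of 10 genes that escape X inactivation, 1 had an unadjusted p below 0.05. This was Mid1, a ubiquitin ligase gene (-0.26, SE 0.103), which overlaps other genes on the opposite strand. Over the 673 X-linked genes tested, 20 were higher and 9 lower at an unadjusted p below 0.05 (4.31%), with a median of 0.0111. On chromosome 17, which holds the MHC, 19 of 847 were higher and 30 lower (5.79%), with a median of -0.00381. Over all 18827 genes tested 2.53% were higher and 3.03% lower at that threshold. Over single chromosomes the share ran from 4% (the mitochondrial one) to 7.12% (chromosome 10), so the X chromosome and chromosome 17 lay within that range.

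Markers of oligodendrocyte precursors leaned low in mice with testes. Of 13 genes 12 lay below 0 with a median of -0.093, and 4 had an unadjusted p below 0.05. Besides Neu4 these were Gpr17, a receptor of committed precursors (36.4 ± 3.74 CPM in XXSry and 40.5 ± 5.36 CPM in XX mice; -0.16, SE 0.0549), and the lineage transcription factor genes Olig1 (-0.13, SE 0.0450) and Olig2 (-0.20, SE 0.0732). Their mean log2 level was 4.28 to 4.44 in XXSry and 4.38 to 4.57 in XX libraries, and 10 of 12 XXSry libraries lay below every XX library. Within cohorts 1 and 2 the list median was -0.149 and -0.0253. The 12 myelin genes of mature oligodendrocytes all lay below 0 with a median of -0.109, none at an unadjusted p below 0.05. Leaving out unstressed XX replicate 2 turned the myelin median to 0.0431 with 2 of 12 below 0. It was -0.194 without stressed XXSry replicate 4, -0.183 without stressed XX replicate 17, -0.173 without unstressed XXSry replicate 34 and -0.0665 without unstressed XXSry replicate 39.

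Markers of other cell types had 0 calls, with list medians from above 0 to lower than that of the heavy chains. Ependyma and choroid plexus had 2 of 5 markers below 0 (median 0.13) and mural cells 4 of 9 (median 0.03). Blood vessel endothelium had 11 of 14 below 0 (median -0.04), activated microglia and macrophages 11 of 13 (median -0.12), and T and NK cells 2 of 3 (median -0.075). Homeostatic microglia had 14 of 16 markers below 0 with a median of -0.028, with Fcrls and Olfml3 (-0.13, SE 0.0510) at an unadjusted p below 0.05 and Tyrobp, an adaptor of microglial receptors, at -0.12 (SE 0.0603). The microglial median was -0.0439 without stressed XX replicate 20, -0.0184 without stressed XX replicate 43, -0.0157 without stressed XXSry replicate 21, -0.015 without unstressed XXSry replicate 34 (10 of 16 below 0) and -0.0511 without unstressed XXSry replicate 39. All 8 complement genes lay below 0 with a median of -0.097, 3 at an unadjusted p below 0.05, among them C1qa (-0.10), C1qb (-0.07) and C1qc (-0.10), which form the C1q molecule. In stressed mice the mean log2 level of homeostatic microglia was 4.18 in XXSry and 4.3 in XX, and that of complement 2.27 and 2.42. In unstressed mice homeostatic microglia stood at 4.33 in XXSry and 4.32 in XX, and complement at 2.44 and 2.43. Markers of meninges and fibroblasts, a list that contains Fmo2, were below 0 in 13 of 13 cases with a median of -0.267, which was -0.177 without stressed XX replicate 17. Their summed level ran from 200 to 497.8 CPM in XXSry and from 260.9 to 670.2 CPM in XX libraries, so the genotypes overlapped. Besides Fmo2, Slc6a13, a transporter gene of meninges, stood at -0.33 (SE 0.137), Foxc1, a meningeal transcription factor gene, at -0.23 (SE 0.114) and Ogn, an extracellular proteoglycan gene, at -0.47 (SE 0.275). Genes of red blood cells were below 0 in 5 of 6 cases with a median of -0.41, with Hbb-bt at -0.60 (SE 0.233) and Hbb-bs at -0.42 (SE 0.221). Astrocyte markers were below 0 in 12 of 12 cases with a median of -0.052, 2 of them at an unadjusted p below 0.05. The part of these shifts in cell type markers in the differences of class I genes, Fmo2 or Fcrls was not tested. In cohort 2 alone the medians of complement (0.0837), homeostatic microglia (0.0321) and red blood cells (0.0709) turned above 0, that of astrocytes was -0.00953, that of the heavy chains was -0.168 and that of meninges and fibroblasts was -0.389.

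Neuronal lists lay on both sides of 0. Of 8 upper-layer excitatory markers 6 lay below 0 (median -0.0398), and of 14 interneuron markers 9 did (median -0.0155), none at an unadjusted p below 0.05. All 10 deep-layer excitatory neuron markers lay above 0 with a median of 0.0934, and Rprm, a cell cycle gene that also marks deep-layer cells, had 23.5 ± 5.42 CPM in XXSry and 19.9 ± 3.85 CPM in XX mice (log2 fold change 0.33, SE 0.0998, unadjusted p = 0.00353). The layer markers Foxp2 (0.24, SE 0.120) and Syt6 (0.25, SE 0.145) did not pass an unadjusted p of 0.05, and in cohort 2 alone the median of the list was -0.0389. Over all 18827 genes tested, 1047 had an unadjusted p below 0.05. Peptide receptors, monoamine receptors and immediate early genes had 6 of 11, 6 of 13 and 6 of 12 below 0. Each of these lists held 1 gene below that p, near the share over all genes. In the peptide receptor list this was Oprk1, the kappa opioid receptor, which had 4.72, 6.95 and 10.1 CPM in XXSry and 3.33, 6.06 and 8.23 CPM in XX mice (0.39, SE 0.115, unadjusted p = 0.00262). In the monoamine receptor list it was Drd5, the D5 dopamine receptor, which had 4.35 ± 0.751 CPM in XXSry and 3.57 ± 0.543 CPM in XX mice (0.27, SE 0.0999, unadjusted p = 0.0117). Among immediate early genes it was Nr4a3, which stood at 0.24 (SE 0.0950). Of 14 cholesterol synthesis genes 13 lay above 0, with a median of 0.046 (0.025 without stressed XX replicate 17), and the enzymes Lss and Sqle each stood at 0.08 (SE 0.0361 and 0.0362). None of these was called.

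**Figure D4:**
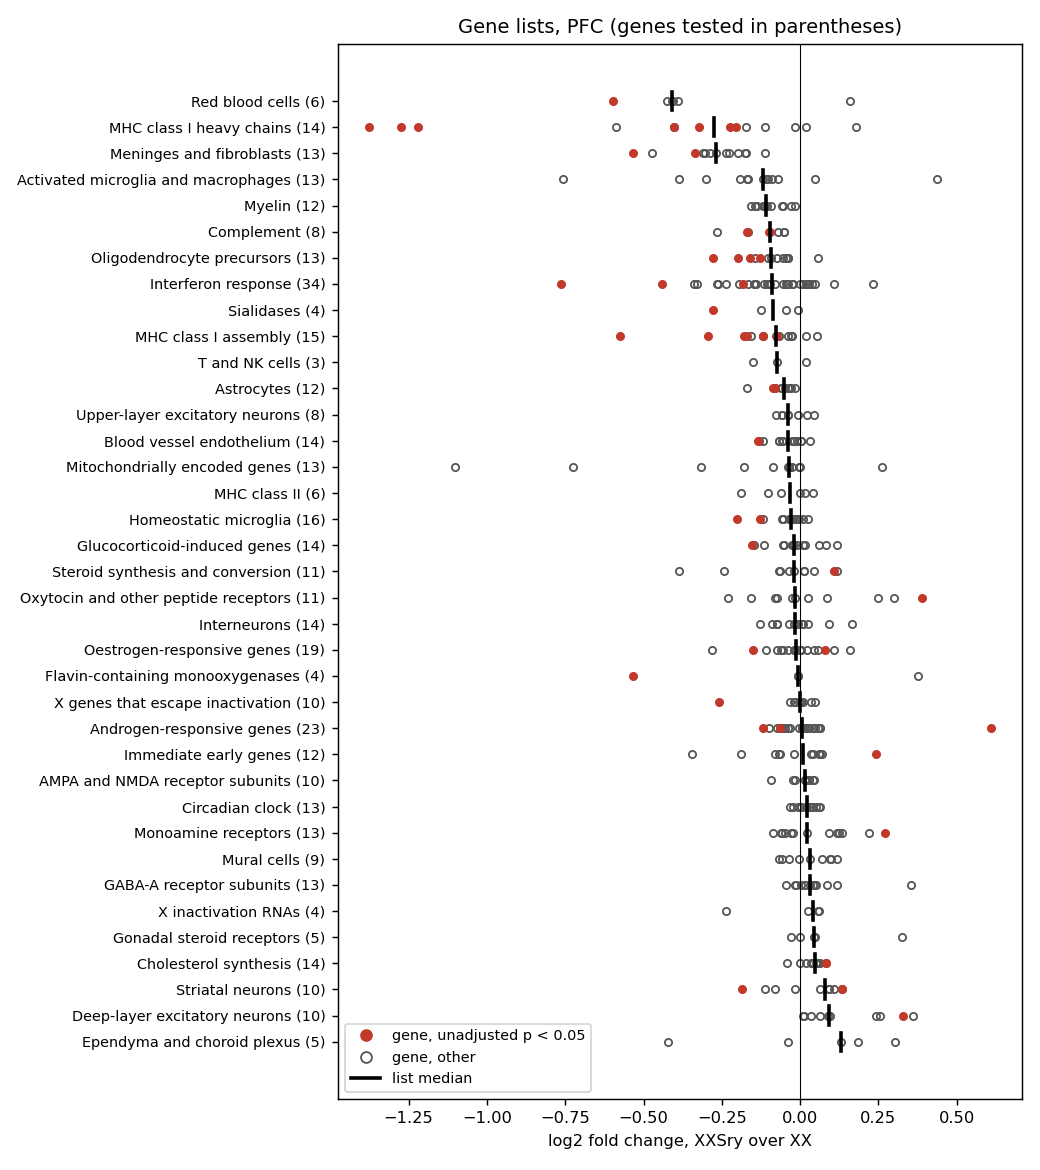
Log2 fold changes of XXSry over XX mice (horizontal axis) for the members of the gene lists with at least 3 genes tested (rows, number tested in parentheses), with filled red points at an unadjusted p below 0.05 and black bars at list medians. The heavy chain list reaches furthest down, to -1.38, and most lists have medians within 0.1 of 0.

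Each treatment was also examined on its own, to ask whether gonad type mattered in stressed and in unstressed animals. In stressed mice no gene of 18827 was called (0%; 873 at an unadjusted p below 0.05), and in unstressed mice none (0%; 1006). H2-Q6 had 0.278 ± 0.0733 CPM in stressed XXSry and 0.615 ± 0.0857 CPM in stressed XX mice (SD, n = 6 each), on the log2 scale a difference of -1.04 (SE 0.302). It had 0.277 ± 0.0995 CPM in unstressed XXSry and 0.727 ± 0.351 CPM in unstressed XX mice (n = 6 and 5), on the log2 scale a difference of -1.37 (SE 0.282). The smallest p among stressed animals belonged to Arhgap29 (-0.24), Fcrls (-0.28) and Arhgap25, another GTPase-activating protein (0.35). Arhgap29 averaged 23.7 ± 1.64 CPM in stressed XXSry and 26.8 ± 1.81 CPM in stressed XX mice. Among unstressed animals the smallest p belonged to Arl4d, a small GTPase (-0.45), H2-Q6 and F830045P16Rik (2.64 at under 0.2 CPM).

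The difference between the gonad effects of stressed and unstressed mice was tested as an interaction, and no gene was called (0%; 817 of 18827 at an unadjusted p below 0.05, smallest adjusted p = 0.952; DESeq2 also called 0). The smallest p belonged to C530050E15Rik (-0.57), Arl4d (0.56) and Bcl2, an inhibitor of cell death (0.32). Arl4d had 7.89 ± 0.924 CPM in stressed XXSry and 7.59 ± 0.708 CPM in stressed XX mice, and 7.32 ± 0.779 CPM in unstressed XXSry against 10.1 ± 1.25 CPM in unstressed XX mice. The 3 C1q genes were not called either. C1qa had 28.3 ± 1.14 CPM in stressed XXSry and 32.9 ± 1.16 CPM in stressed XX mice, and 32.2 ± 2.36 CPM in unstressed XXSry against 32.3 ± 2.57 CPM in unstressed XX mice (interaction -0.20, unadjusted p = 0.0111). The interaction of C1qb was -0.18 (unadjusted p = 0.0296) and that of C1qc -0.22 (unadjusted p = 0.00444). For H2-Q6, H2-K1 and Neu4 the interaction values were 0.33, -0.08 and 0.09 with unadjusted p = 0.432, 0.564 and 0.376. The XXSry mice of cohort 2 were all unstressed, and the XX and XXSry mice of cohort 3 were all stressed. Treatment and cohort are therefore partly tied in these genotypes.

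The same gonad contrast in mice with a Y- chromosome, XY-Sry against XY-, used other animals (12 and 13 PFC libraries). No gene was called there (0% of 18847), with 466 (2.47%) lower and 374 (1.98%) higher at an unadjusted p below 0.05. H2-Q6 had 0.515 ± 0.313 CPM in XY-Sry and 1.34 ± 0.850 CPM in XY- mice, on the log2 scale a difference of -1.39 (SE 0.361, unadjusted p = 0.000891). H2-K1 (-0.50, SE 0.152), H2-D1 (-0.44, SE 0.132), H2-Q4 (-0.60, SE 0.164), H2-Q7 (-1.86, SE 0.426) and B2m (-0.40, SE 0.122) also lay below 0, and 12 of 14 heavy chain genes did, with a median of -0.31, where 51.1% of all genes lay below 0. Fmo2 stood at -0.36 (SE 0.103) and Neu4 at -0.16 (SE 0.0630). Of the 20 genes with the smallest p in XX mice, 19 were tested and 14 had the same direction, where 50.4% of all 18674 genes tested in both did. Calr (0.01), Fcrls (0.03) and Rev3l (0.02) stood near 0 there, and Ky (0.23) and Gm42735 (-0.24) had the opposite sign. In the PFC of XX mice 25 of 34 interferon genes lay below 0 (median -0.088). In XY- mice 34 of 34 did, with a median of -0.39. Precursor markers were below 0 in 7 of 13 cases (median -0.006) and myelin genes in 0 of 12 (median 0.243). The 3 smallest p belonged to Hpcal1, a neuronal calcium sensor (-0.27, adjusted p = 0.0762 by edgeR), Tmem117 (-0.28) and Traip (-0.24), and Esr1 stood at -0.31 (SE 0.0867, unadjusted p = 0.00127).

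Whether the gonad effect differed between XX and XY- mice was tested directly, and no gene was called (0% of 19292; 839 at an unadjusted p below 0.05; DESeq2 called 1). The smallest p belonged to Gm42735 (0.65, adjusted p = 0.237 by edgeR), Ky (-0.67) and Siglecf, a sialic acid binding receptor (1.34). H2-Q6 (0.18, SE 0.413), H2-K1 (0.18), H2-D1 (0.23) and Fmo2 (-0.21) had unadjusted p = 0.660, 0.286, 0.111 and 0.164 in that test. Calr (-0.13, unadjusted p = 0.0305) and Fcrls (-0.25, unadjusted p = 0.0143) were further apart, without a call.

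The nucleus accumbens (NAc) of the same 23 animals gave the same leading gene. H2-Q6 had 0.169 ± 0.0485 CPM in XXSry and 0.575 ± 0.312 CPM in XX mice (SD, n = 12 and 11), on the log2 scale a difference of -1.77 (SE 0.266, adjusted p = 0.0111 by edgeR). It was the 1 gene called there (0.00519% of 19267), with 386 genes (2%) lower and 304 (1.58%) higher at an unadjusted p below 0.05. H2-K1 stood at -0.39 (SE 0.0841), H2-D1 at -0.33 (SE 0.0984), H2-Q4 at -0.47 (SE 0.150), Calr at -0.11 (SE 0.0373) and Fcrls at -0.13 (SE 0.0504). Of 13 heavy chain genes tested 12 lay below 0 with a median of -0.182, where 50.2% of all genes lay below 0. Interferon-response genes lay below 0 in 33 of 34 cases, with a median of -0.283. Neu4 stood at -0.07 (SE 0.0721) in this region, and its difference between regions was -0.21 (unadjusted p = 0.0221, not called), while Rev3l (0.03) and Rras (0.02) stood near 0. Of the 20 genes, 14 kept the direction of the PFC, where 58.1% of all genes tested in both regions did; the animals are shared, so these are not separate mice. The difference between regions, with the animal as a block, gave no call (0% of 19874; 487 at an unadjusted p below 0.05; smallest adjusted p = 1). H2-Q6 stood at 0.54 (SE 0.272, unadjusted p = 0.0539) in that test. Of the genes named so far, Neu2, Gper1, Srd5a1, Tspo, Gpr17, Ogn, Syt6, Drd5, Tmem117, C530050E15Rik and the T-region genes H2-T22, H2-T23 and H2-T24 overlap a gene on the opposite strand, as does Tmc3, which makes them uncertain. The smallest p in the comparison of regions belonged to Tmc3 (0.92), the odorant receptor gene Olfr690 (2.36 at under 0.2 CPM) and Lepr, the leptin receptor (-0.53).

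**Figure D5:**
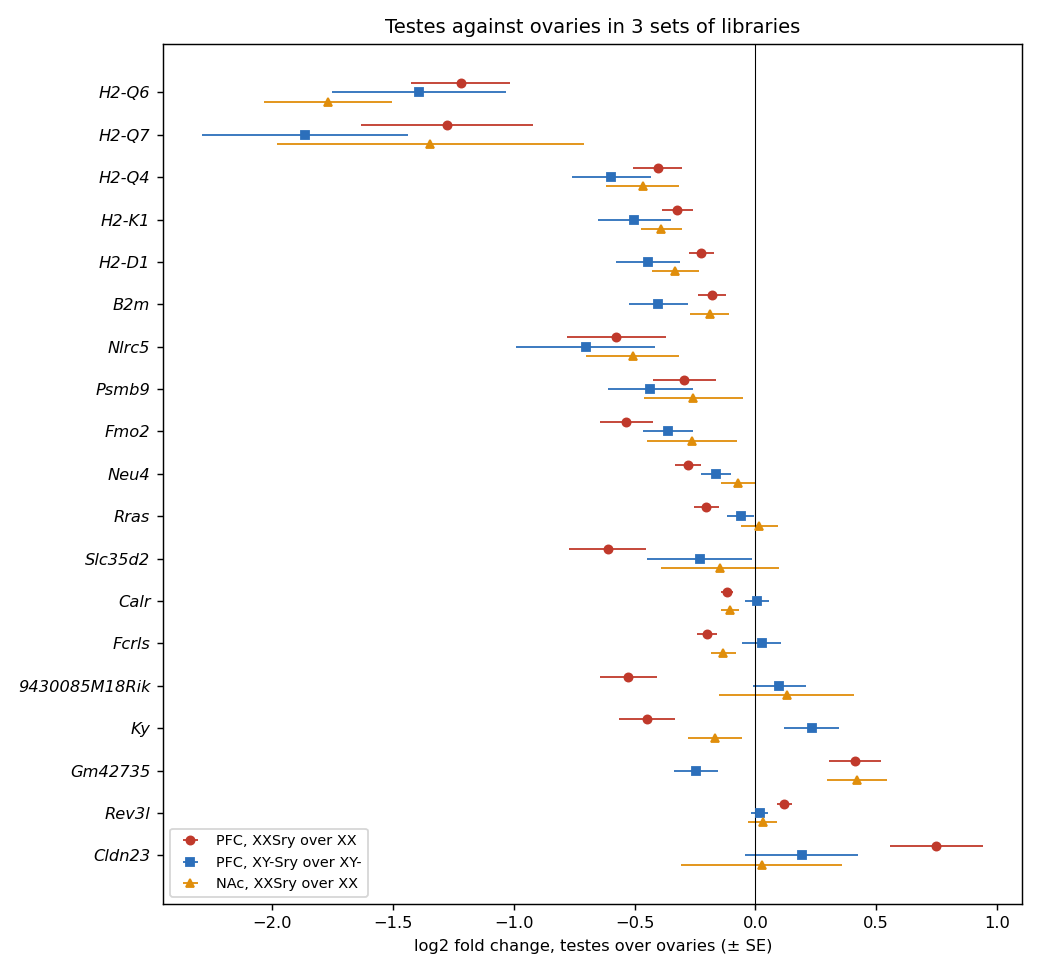
Log2 fold change of testes over ovaries with its SE (horizontal axis) for 19 genes (rows) in the PFC of XX mice (red circles), the PFC of XY- mice (blue squares) and the NAc of XX mice (orange triangles). H2-Q6, H2-Q7, H2-Q4, H2-K1, H2-D1 and B2m lie below 0 in all 3 sets, while Ky and Gm42735 take opposite signs in the PFC of XX and XY- mice.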

How the data were processed

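Per the labels' protocols, RNA from PFC and NAc punches was made into Illumina TruSeq mRNA libraries and sequenced as paired reads. The tools named in the submitters' processing notes, without their roles, are HISAT2 2.2.0, Trimmomatic 0.38, FastQC 0.11.9, DESeq2 and edgeR, and the build is GRCm38 (mm10). Which program counted reads, with which strand option and annotation, is not stated. The authors deposited raw counts per Ensembl gene (19918 per region), 1 column per library, with 0 columns left unused. Library totals lie above the read number the protocol states, and whether mates or repeated alignments were counted separately is not known. If so, the counts printed stand for fewer molecules and the limits from a count of 0 are too low.

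Symbols and positions came from GENCODE M21 (19795 IDs found, 123 not). Counts were tested with edgeR 4.0.16 in R 4.3.3 (TMM scaling, filterByExpr by group, robust quasi-likelihood fit) with treatment and cohort as covariates. CPM use TMM library sizes, except the Xist means and the limits for Y-linked genes, which use plain library totals. SEs are the log2 fold change divided by the square root of F. Alternatives used DESeq2 1.42.0, limma 3.58.1 and sva 3.50.0, other scalings and filters, single cohorts and the omission of each library. The test was also run on data simulated with the mean levels and dispersions of these libraries. Replicates of a genotype are separate animals, per the titles. Across 55 pairs of libraries of the same group, chi-square per degree of freedom was at least 6.62, so none agreed within sampling noise. Floors and intervals from counts cover counting error only.

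The genes named are the 20 with the smallest p, every measured member of the sex-linked, steroid receptor, class I, monooxygenase and sialidase lists, up to 6 members with the smallest p of other lists, and the 3 smallest p of each interaction or split; 1 member of the steroid receptor list is not reported here. The 38 lists, with 452 genes, and the members were chosen with earlier results of these data known. The regions were compared with the animal as a replicate block, since titles give the same animal ID for both; PFC and NAc deviations of an animal had a median correlation of 0.0679 over 11573 genes, with 9 of 23 above 0.1.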

Additional observations from a re-analysis of the deposited data

Results flagged for a closer look

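Single libraries stood apart from the rest of their genotype and treatment in 23 of 400 sets of values examined (5.75%), where chance flags about 1 in 20. Unstressed XX replicate 2 was high for H2-K1 (17.8 CPM, others up to 14.54) and for the class I assembly genes (mean log2 CPM 3.97, others up to 3.841). Stressed XXSry replicate 4 was high for H2-T24 (2.14 CPM), Nlrc5 (1.04 CPM, others up to 0.5466), Iigp1 (2.92 CPM, others up to 1.225) and Olig2 (15.8 CPM). Unstressed XXSry replicate 27 was high for Gm42735 (2.28 CPM) and Neu1 (58.3 CPM) and low for Olig1 (30.5 CPM) and the interferon list (mean log2 CPM 1.04). Unstressed XXSry replicate 3 was high for Gm4951 (0.426 CPM) and Tmc3 (0.742 CPM). Unstressed XXSry replicate 34 was high for Gm37443 (0.384 CPM) and low for Tspo (0.552 CPM). Stressed XX replicate 17 was high for Gm4951 (0.612 CPM) and Ogn (14.3 CPM). Stressed XX replicate 43 was high for Olfml3 (20.1 CPM) and Arl4d (8.99 CPM). Stressed XX replicate 25 was low for Pgr (46.2 CPM) and high for F830045P16Rik (0.186 CPM). Among unstressed XX mice, replicate 50 was high for Steap4 (0.364 CPM), replicate 35 low for Xist (872 CPM) and replicate 29 low for F830045P16Rik (0.0129 CPM).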

How the results depend on the processing

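The count of 1 gene in the PFC of XX mice stayed 1 with DESeq2 size factors, upper-quartile scaling, no filter on low counts, no treatment term and a fit over all 48 PFC libraries, although in that last fit the gene called was Neu4 and not H2-Q6. It was 7 with DESeq2, 4 without the cohort term and 0 with limma-voom, under the stricter filter, with 2 surrogate variables, in cohort 1 alone and without cohort 3. In cohort 2 alone, with 5 libraries, it was 4, and those genes (Ngp, Prg4, Ltf and Col5a1) were called in no other fit of this comparison. Leaving out each library gave 0 to 3 genes, 0 in 17 of 23 fits; H2-K1 was also called without stressed XXSry replicate 4 or unstressed XXSry replicate 39, Fcrls without that replicate 39 and Fmo2 without unstressed XX replicate 29. H2-Q6 lost its call under limma-voom (-1.159), with 2 surrogate variables (-1.28), with all 48 libraries (-1.232), in cohort 1 (-1.213), in cohort 2 (-1.272) and without cohort 3 (-1.216), and it kept its direction in all 35 alternatives that tested it. DESeq2 called 5 genes in unstressed and 3 in stressed XX mice, 5 in XY- mice and 1 for gonad by chromosome, against 0 with edgeR in each. Leaving out each library gave 0 to 1 gene in unstressed and 0 to 0 in stressed mice and for the interaction with stress. In the NAc the count of 1 was 0 under the stricter filter, where H2-Q6 was not tested. The comparison of regions gave 0 genes with the replicate block and 0 with no replicate block. With 2 surrogate variables the medians of myelin (-0.0334) and deep-layer neurons (0.0463) were nearer to 0. Of 91 named genes 68 kept their direction in every alternative, and 80 did so outside cohort 2 alone, but the alternatives largely reuse the same libraries. Depth limits the genes with fewer than 1 CPM, H2-Q6 among them. Causes were not tested.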
